A study of Brassica napus with 16 samples.

Results

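FAE1 and FAD2 direct what becomes of oleic acid in the seeds of oilseed rape, and 4 of the 101040 listed genes are described here: the FAE1 copies BnaA08g11130D on chromosome A08 and BnaC03g65980D on C03, and the FAD2 copies BnaA05g26900D on A05 and BnaC05g40970D on C05. They were chosen by name and identifier, with earlier results of these data known. Brassica napus is an allotetraploid, so most genes are present as homeologs, a copy in the A and a copy in the C subgenome. Expression was measured by RNA-seq in the cultivars 2063A and B409, in 8 cultivar-by-tissue groups of 2 libraries. Per the labels, young leaves came from hydroponic plants aged 2 weeks, roots from seedlings 7 d after they were planted on moist paper, flower buds measured up to 2 mm and siliques 3 to 5 cm. Roots and young leaves grew in a phytotron and the buds and siliques on field plants, so tissue is tied to growing place and age. No treatment or mutation separates the cultivars in the labels, and nothing states that the replicates came from separate plants, so p-values measure the spread between these libraries, which may be technical.

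FAE1 encodes a 3-ketoacyl-CoA synthase, the condensing enzyme of the fatty acid elongase that lengthens oleoyl-CoA to the very long chain erucic acid stored in the seed oil of older rapeseed cultivars. In Arabidopsis it is active in developing embryos, and loss of FAE1 function underlies low-erucic rapeseed. FAD2 encodes the oleate desaturase of the endoplasmic reticulum, which turns oleic acid bound to phosphatidylcholine into linoleic acid in membranes of the whole plant and in seed oil, and its loss in seeds gives high-oleic oil. Both enzymes draw on oleic acid.

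The names came with the identifiers chosen. None of the 4 identifiers (0 members matched) occurs in the RefSeq gene table of assembly Da-Ae, which lists 3347 of the identifiers (3.31%). In that table a gene with the synonym FAE1 on chromosome A8 lies between the genes BnaA08g11070D and BnaA08g11210D, and BnaA08g11130D is 1 of the 13 identifiers the files list between them. Of those 13, 4 had a mean FPKM of at least 1 in silique, the highest at 20.2, and which of the 13 is the FAE1 of that table was not tested. The assembly is not known to be the one behind the files. Markers of leaf, root, flower or seed could not be looked up, since the files and the table pair no such names with identifiers, and the seed share of the siliques is therefore not known.

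The files give FPKM, a read density corrected for transcript length and library size, and no counts. Summed FPKM ran from 519039 to 617686 per library and 33483 to 41456 genes reached an FPKM of 1. The absolute depth is unknown, but low values of a gene fell on whole multiples of a step in 90.0% of cases within 3%, against 21.1% for evenly spread values, and the step gave the relative depth. The steps were chosen from these same values to raise that share, and none were fitted to the evenly spread values, so the shares are not a like comparison. The deepest library, flower bud replicate 2 of 2063A, had 2.76 times the depth of the shallowest, flower bud replicate 2 of B409. The step of B409 young leaf replicate 2 was the least certain and could be off by a factor of 2. How reads shared by homeologs were assigned is not known, which leaves the split between an A and a C copy uncertain.

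Both FAE1 copies were near or at 0 in every tissue, siliques included. The copy on A08 was listed at 0 in all 16 libraries. In this it resembled 30018 listed genes (29.7%). The copy on C03 was listed at 0 in 13 libraries and its 3 other values were 0.137 and 0.217 in flower bud of 2063A, replicates 1 and 2, and 0.0961 in silique replicate 2 of 2063A. The highest of these was below an FPKM of 1, as for 43.8% of the listed genes. Neither copy entered the main limma tests, which took genes reaching an FPKM of 1 in 2 or more libraries. The depth order could shift, since the step of B409 young leaf replicate 2 could be off by a factor of 2. By the order as recovered, the 3 libraries in which the C03 copy was above 0 were among the 5 deepest. No library of B409 showed the C03 copy, although silique replicate 2 of B409 was number 3 in that order. The part of depth in these differences was not tested. An FPKM of 0 can also be a failed estimate. In bulk tissue, fewer cells of a type and less RNA per cell cannot be told apart, and the depths of the 4 silique libraries spanned 2.38-fold. The FAE1 copies did enter the exact tests of the A to C ratio (A against C copy, exact sign-flip permutation p = 0.25). With 3 libraries above 0, such tests could not tell their levels apart. In siliques of 3 to 5 cm, the identifiers labelled FAE1 thus had a single value above 0, that of 0.0961 for the C03 copy.

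**Figure D1:**
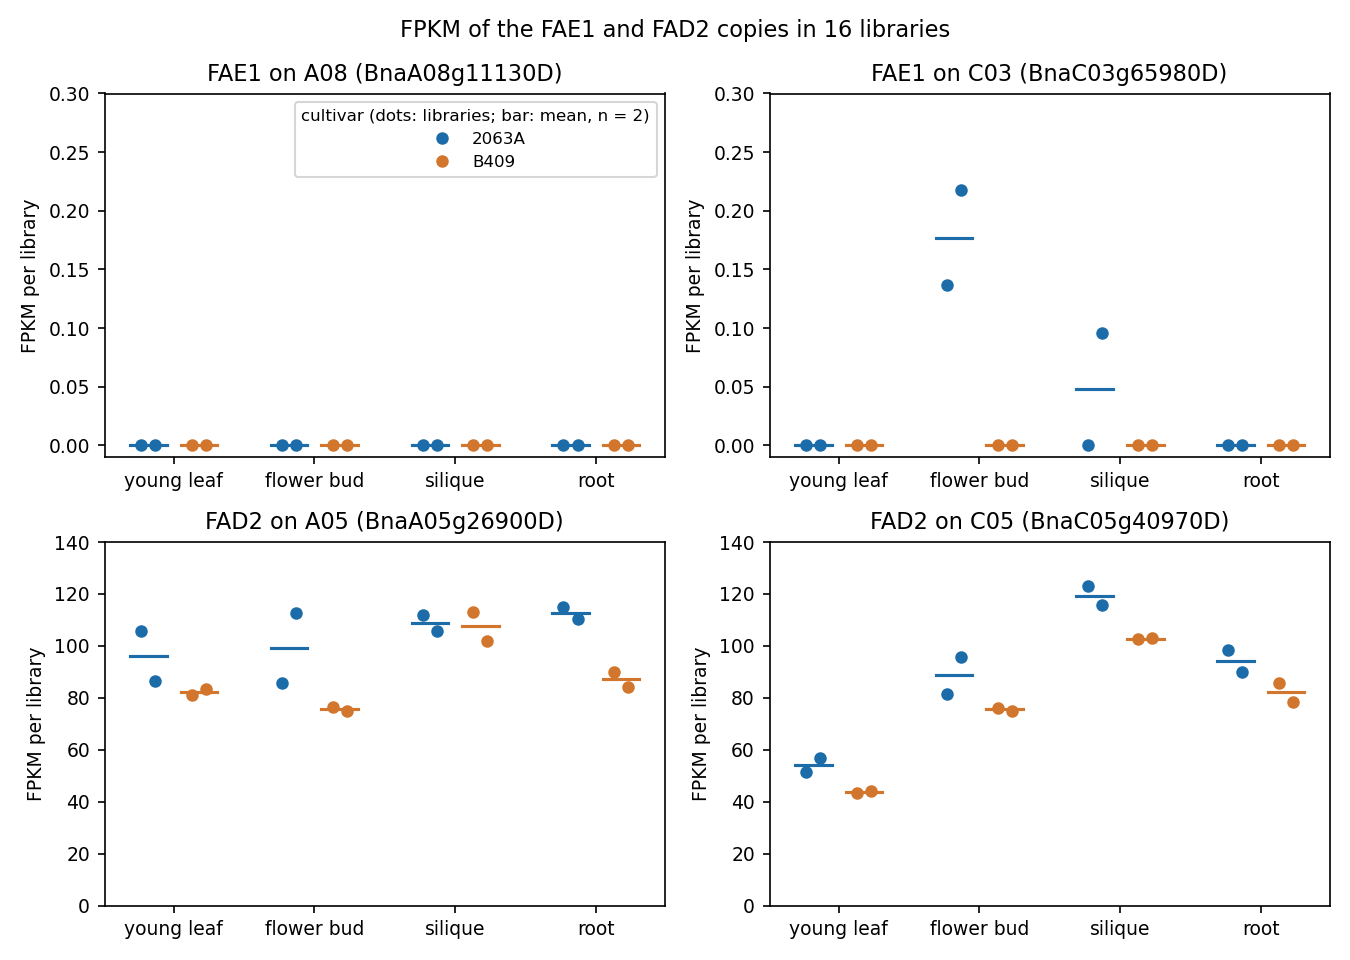
FPKM of the FAE1 copies (top, axis to 0.3) and the FAD2 copies (bottom, axis to 140) in each library, by tissue, with 2063A in blue and B409 in orange and the mean of 2 libraries as a bar. The FAE1 copies stay below 0.3, and the FAD2 copies lie between 43.2 and 123 with the C05 copy lowest in young leaf.

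Both FAD2 copies were expressed in every library. FAD2 on A05 ranged from 75.1 to 115 FPKM and FAD2 on C05 from 43.2 to 123. At these levels each lay above at least 98.0% of the listed genes, with ranks from the highest expressed gene down of 469 to 1099 for A05 and 520 to 2012 for C05. The group means of the A05 copy varied 1.49-fold between the highest and the lowest, and 2.11% of the 3361 genes that kept a mean of at least 10 in all 8 groups varied less. Over those genes the median ratio was 3.06, and the C05 copy, at 2.74, was in the middle of them (40.9% varied less).

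FAD2 on A05 had 106 and 86.4 FPKM in young leaf of 2063A and 81.3 and 83.5 in young leaf of B409. In flower bud it was at 85.9 and 113 in 2063A and at 76.5 and 75.1 in B409. Silique gave 112 and 106 in 2063A and 113 and 102 in B409, and root gave 115 and 110 against 90.1 and 84.3. The 4 silique libraries lay in the upper part of the range, but both root libraries of 2063A, 1 flower bud library and 1 young leaf library were within or above their range, so silique overlapped every other tissue.

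FAD2 on C05 had 51.6 and 56.7 FPKM in young leaf of 2063A and 43.2 and 44.1 in young leaf of B409. Flower bud gave 81.5 and 95.8 in 2063A and 76.1 and 74.9 in B409. Silique gave 123 and 116 in 2063A and 103 and 103 in B409, and root gave 98.5 and 90.0 against 85.9 and 78.4. All 4 young leaf libraries were below the other 12, and all 4 silique libraries were above the other 12. Of all 54206 tested genes, 14.8% had young leaf below all other libraries and 4.61% had silique above all others.

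Silique against the other tissues was tested with limma on log2(FPKM + 1), all 16 libraries sharing the estimate of spread. The level of the C05 copy was 111 ± 10.02 in silique (SD, n = 4) and 73.1 ± 19.5 in the other tissues (n = 12), a log2 change of 0.65 (95% interval 0.49 to 0.81, adjusted p = 1.2e-05). The A05 copy was at 108 ± 5.18 in silique (SD, n = 4) and 92.2 ± 14.5 elsewhere (n = 12), a log2 change of 0.24 (95% interval 0.05 to 0.44, adjusted p = 0.036). Both copies passed at an adjusted p below 0.05 in the upward direction, as did 30.2% of tested genes. Neither reached the 2-fold that a call required, which 9.34% of tested genes did upward. The median of all tested genes moved by 0.05. Without the young leaf libraries the C05 change was 0.38. The A05 result stayed past the adjusted p in 7 of the 16 fits that left out 1 library. It was lost without any of the 4 silique libraries, either root library of 2063A, either flower bud library of B409 or root replicate 2 of B409 (log2 change 0.20 to 0.28, adjusted p up to 0.14).

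By cultivar, the C05 copy was higher in silique than in the other tissues by 0.63 in 2063A (adjusted p = 0.00039) and by 0.66 in B409 (adjusted p = 0.00026) on the log2 scale in the limma fit, in the direction that 21.6% and 24.1% of tested genes took past the same threshold. For the A05 copy the change was 0.09 in 2063A (95% interval -0.18 to 0.37, adjusted p = 0.60) and 0.39 in B409 (95% interval 0.12 to 0.67, adjusted p = 0.025), and the latter was lost in 3 of 16 fits without 1 library (adjusted p up to 0.20). The difference between those changes, 2063A minus B409, was -0.30 (95% interval -0.69 to 0.09, limma adjusted p = 0.46), a test that 6.43% of tested genes passed, so the changes were not shown to differ between the cultivars.

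Ordered by mean, the C05 copy stood at 111 ± 10.02 in silique, 88.2 ± 8.37 in root, 82.1 ± 9.60 in flower bud and 48.9 ± 6.45 in young leaf (SD, n = 4 each). Root and flower bud were neighbours that did not differ beyond their spread (log2 change flower bud minus root -0.10, 95% interval -0.30 to 0.09, adjusted p = 0.31 in limma), although after quantile normalization the change was -0.24 (adjusted p = 0.023). Silique exceeded root by 0.33 (adjusted p = 0.0063, 32.7% of tested genes), and flower bud was below silique by -0.43 (adjusted p = 0.0016, 22.5%), each share being the genes past the adjusted p in the same direction. Young leaf was below silique by a log2 change of -1.17 (SE 0.09, adjusted p = 4.9e-07), below root by -0.84 (adjusted p = 3.6e-06) and below flower bud by -0.74 (adjusted p = 1.4e-05). In these comparisons 47.9%, 52.3% and 54.2% of tested genes were past the adjusted p in the same direction. The difference between young leaf and silique exceeded 2-fold and was called for 1 of the 2 FAD2 copies, C05, as it was for 17.4% of tested genes. The median of all tested genes was itself shifted by -0.32 in that comparison, -0.41 against root and -0.45 against flower bud, and the C05 copy lay below each of these medians.

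For the A05 copy the order was silique at 108 ± 5.18, root at 99.9 ± 15.0, young leaf at 89.2 ± 11.2 and flower bud at 87.5 ± 17.4 (SD, n = 4 each). Flower bud was below silique by -0.32 (limma adjusted p = 0.027), past the threshold in 10 of 16 fits without 1 library. Silique and root did not differ beyond their spread in the limma fit (log2 change 0.12, 95% interval -0.11 to 0.36, adjusted p = 0.34), and quantile normalization turned the change to -0.013. Young leaf minus root was -0.16 (adjusted p = 0.22 in limma), but -0.37 with equal totals (adjusted p = 0.0074). Young leaf minus flower bud was 0.04 (95% interval -0.20 to 0.28, adjusted p = 0.79), and this difference turned to -0.09 when libraries were scaled to equal totals. Young leaf minus silique was -0.28 (95% interval -0.52 to -0.04, adjusted p = 0.040), close to the median shift of all genes in that comparison, and it was lost without the filter on low values (adjusted p = 0.068) and in 11 of 16 fits without 1 library.

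**Figure D2:**
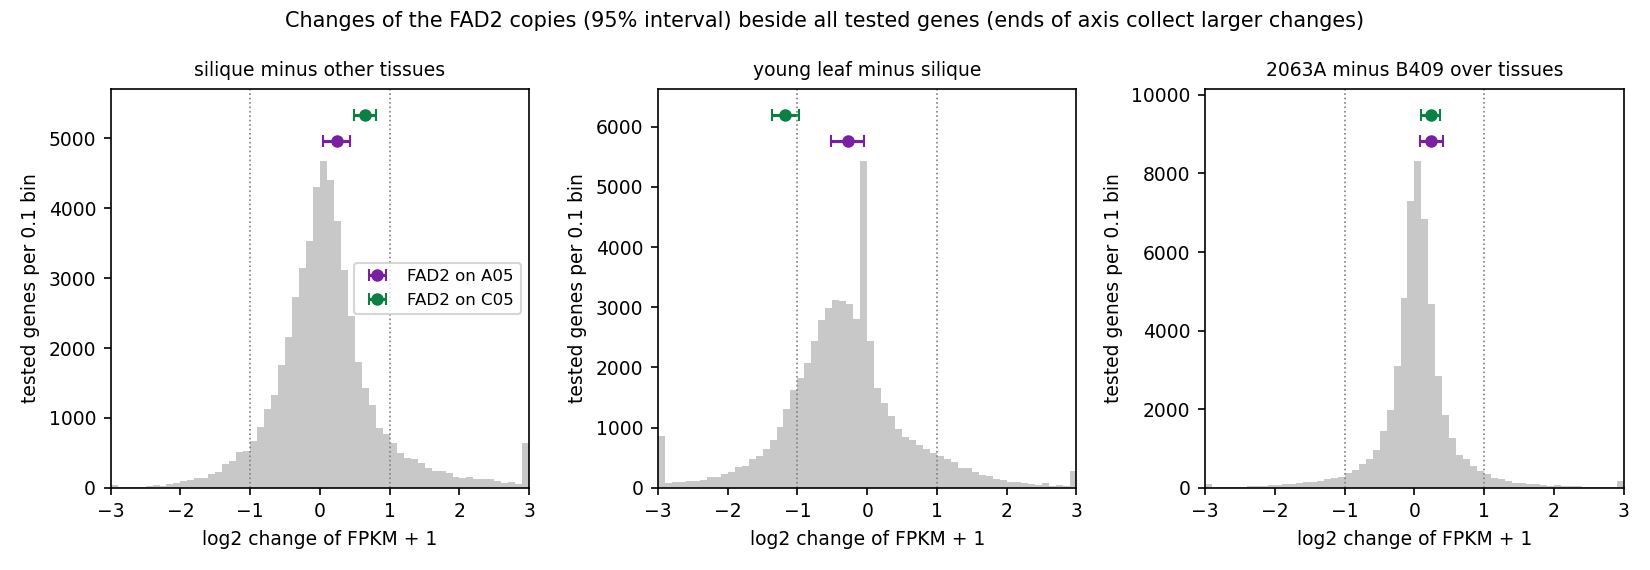
Log2 change of FPKM + 1 of the FAD2 copies with 95% intervals above the distribution of all 54206 tested genes, for silique minus the other tissues, young leaf minus silique and 2063A minus B409. Dotted lines mark a 2-fold change, which the C05 copy passes only in young leaf minus silique.

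The balance of the FAD2 copies stood apart in young leaf, while the ranges of the other tissues overlapped. The A05 copy was the higher one in 13 of 16 libraries. In young leaf its FPKM was 2.05 and 1.52 times that of the C05 copy in 2063A and 1.88 and 1.89 times in B409. In flower bud the ratio was 1.05 and 1.17 in 2063A and 1.005 and 1.003 in B409, and in root 1.17 and 1.23 against 1.05 and 1.08. In silique it was 0.908 and 0.915 in 2063A and 1.10 and 0.991 in B409. All 4 young leaf libraries lay above the other 12, and the 3 libraries with the C05 copy in excess were all silique libraries. As a share of the summed FPKM of both copies, A05 held 64.6% ± 2.95 in young leaf, 53.0% ± 1.80 in root, 51.4% ± 1.85 in flower bud and 49.4% ± 2.23 in silique (SD, n = 4 each).

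Over the 16 libraries the mean log2((A05 + 1)/(C05 + 1)) was 0.27 (exact sign-flip permutation test, two-sided p = 0.0058, 65536 sign patterns, adjusted p = 0.035 over the 6 exact tests of the FAD2 and FAE1 pairs). It was lost without any of the 4 young leaf libraries, either root library or flower bud replicate 2 of 2063A, or silique replicate 1 of B409 (adjusted p up to 0.070). The adjustment also counts the tests of the FAE1 pair, which with 3 libraries above 0 had little or no room to pass. Counting them makes the adjusted p-values of the FAD2 ratio tests larger, and an adjustment without them was not made. The excess was largest in young leaf, with a mean of 0.86 against 0.17 in root and 0.08 in flower bud, where the A05 copy was also the higher in every library. Without the 4 young leaf libraries the mean was 0.07 (exact permutation p = 0.093, adjusted p = 0.28), and in silique alone it was -0.04 (exact permutation p = 0.50, where 4 libraries cannot give less than 0.125). The ratio in silique minus that in the other tissues was -0.40, with labels permuted within cultivars (exact permutation p = 0.055, 784 relabellings, adjusted p = 0.16). A test added after the values were seen put young leaf 0.78 above the other tissues (exact permutation p = 0.0013, the smallest that 784 relabellings allow). It describes a pattern already visible in the same libraries. The exact tests moved single libraries and not whole groups. Their p-values therefore count the 2 libraries of a group as separate, although nothing states that these came from separate plants. Averaged over tissues, the log2 ratio of 2063A minus B409 was 0.01, with labels permuted within tissues (exact permutation p = 0.93, 1296 relabellings, adjusted p = 1.0). That average mixes opposite directions. The mean log2 ratio was lower in 2063A than in B409 in silique (-0.13 against 0.06) and young leaf (0.81 against 0.90). It was higher in 2063A in flower bud (0.15 against 0.005) and root (0.26 against 0.09). Whether the cultivar difference of the ratio depends on tissue was not tested.

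**Figure D3:**
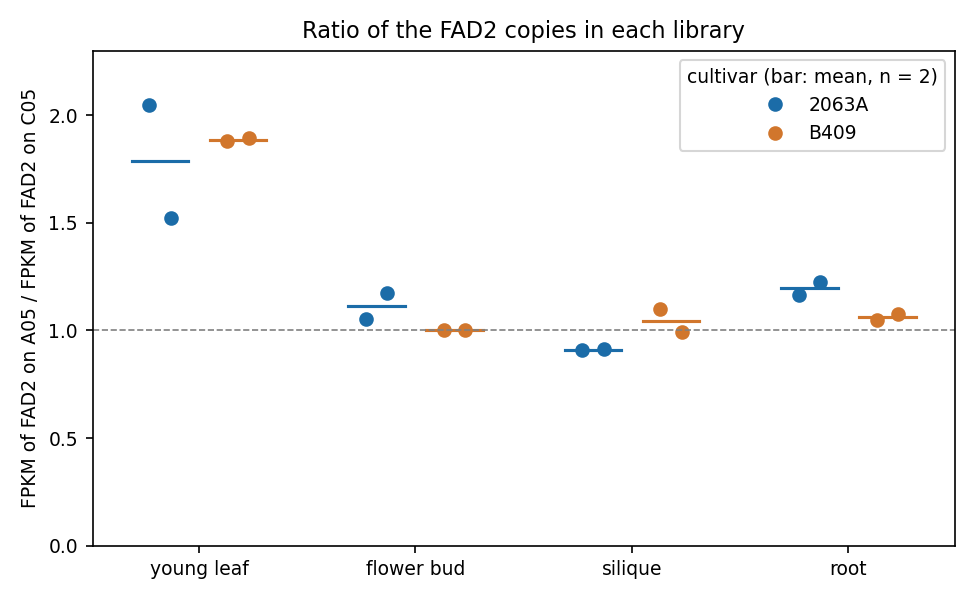
FPKM of FAD2 on A05 divided by that of FAD2 on C05 in each library, by tissue, with 2063A in blue, B409 in orange, the mean of 2 libraries as a bar and a dashed line at equal levels. Young leaf libraries lie between 1.52 and 2.05 and all others between 0.908 and 1.23.

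Because the split between homeologs depends on read assignment, the summed FPKM of the A05 and C05 copies was also taken. Further FAD2 copies could not be looked up by name, so the sum may not be all of FAD2. The sum was 219 ± 12.5 in silique, 188 ± 22.9 in root, 170 ± 27.0 in flower bud and 138 ± 15.2 in young leaf (SD, n = 4 each). Silique libraries ran from 205 to 235 and young leaf libraries from 124 to 157, so these tissues did not overlap. Root ran from 163 to 213 and flower bud from 150 to 208, so both overlapped silique and each other, and flower bud but not root also overlapped young leaf.

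2063A had higher FAD2 values than B409 in most tissues, by less than 2-fold. Averaged over the tissues, the log2 change was 0.24 for the A05 copy (95% interval 0.07 to 0.41, limma adjusted p = 0.026) and 0.23 for the C05 copy (95% interval 0.10 to 0.37, limma adjusted p = 0.011). Both passed at an adjusted p below 0.05 in this direction, as did 20.8% of tested genes, and neither was called, while 3.79% of tested genes were called higher in 2063A. The median of all tested genes moved by 0.04. Both libraries of 2063A were above both of B409 for the C05 copy in all 4 tissues, an arrangement found for 7.5% of tested genes, and for the A05 copy in 3 tissues (16.5% of tested genes in 3 or more). By tissue, 32.3% of tested genes were arranged so in root, 27.7% in silique, 39.9% in flower bud and 20.8% in young leaf. The A05 result was lost without replicate 2 of flower bud, silique or root of B409, replicate 2 of flower bud of 2063A, or replicate 1 of silique or root of 2063A (adjusted p up to 0.065).

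Within single tissues, 0 of the 2 FAD2 copies differed between the cultivars at an adjusted p below 0.05, where 21.6% of tested genes did in root, 17.9% in silique, 26.2% in flower bud and 18.6% in young leaf. For the A05 copy the limma changes were 0.37 in flower bud (adjusted p = 0.10), 0.37 in root (adjusted p = 0.13, but 0.0013 with root libraries fitted alone), 0.21 in young leaf (adjusted p = 0.43) and 0.02 in silique (95% interval -0.32 to 0.36, adjusted p = 1.0). The flower bud value rested on single libraries, at 0.56 without replicate 1 of 2063A (adjusted p = 0.037) and 0.18 without replicate 2 (adjusted p = 0.57), and it passed without the young leaf libraries (adjusted p = 0.025), as did root (adjusted p = 0.032). The young leaf value was 0.07 without replicate 1 of 2063A and 0.36 without replicate 2. In silique its libraries overlapped, at 112 and 106 in 2063A and 113 and 102 in B409. For the C05 copy the changes were 0.30 in young leaf (adjusted p = 0.13), 0.22 in flower bud (adjusted p = 0.24), 0.21 in silique (95% interval -0.06 to 0.49, adjusted p = 0.34) and 0.20 in root (adjusted p = 0.37). Its flower bud value was 0.34 without replicate 1 of 2063A and 0.11 without replicate 2, and its root value was 0.13 without replicate 2 of B409. The cultivar difference was not shown to depend on tissue at an adjusted p below 0.05 for A05 (limma interaction F, adjusted p = 0.56) or C05 (adjusted p = 0.96), whereas 20.9% of tested genes passed this test. With 2 libraries per group, changes of this size within a tissue would mostly be missed.

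The surroundings of the copies were compared by identifier number, taking the 5 listed identifiers on either side. Around FAE1 on A08, 5 of 10 neighbours were tested and 5 stayed below an FPKM of 1 in every library. Next to the copy, BnaA08g11140D was listed at 0 throughout and BnaA08g11120D did not exceed 0.0865, while expressed genes lay further out, with the highest group mean among the 10 at 24.8 in root of B409. Around FAE1 on C03, 3 of 10 neighbours were tested and 7 stayed below 1, including all 5 on the side of higher numbers. On the other side, BnaC03g65970D did not exceed 1.02, and the highest group mean was 27.6, in silique of 2063A. Values near 0 were thus not particular to FAE1 among the identifiers listed beside it.

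Around the FAD2 copies, 6 of 10 neighbours on A05 and 7 of 10 on C05 were tested. The neighbours just before them were both highest in flower bud and lowest in young leaf of B409. BnaA05g26890D had group means from 5.37 in young leaf of B409 to 12.9 in flower bud of 2063A, and BnaC05g40960D from 3.31 in young leaf of B409 to 10.5 in flower bud of B409. The neighbours just after were both highest in root, with BnaA05g26910D at 3.13 and BnaC05g40980D at 17.2 in root of B409. In silique against the other tissues, 1 neighbour was called higher at each of 3 of the loci (C03, A05 and C05) and none at A08, while 9.34% of all tested genes were called so. Between the cultivars over tissues 0 of the tested neighbours (5 at A08, 3 at C03, 6 at A05 and 7 at C05) were called, against 7.51% of tested genes, numbers too small to read a difference from.

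**Figure D4:**
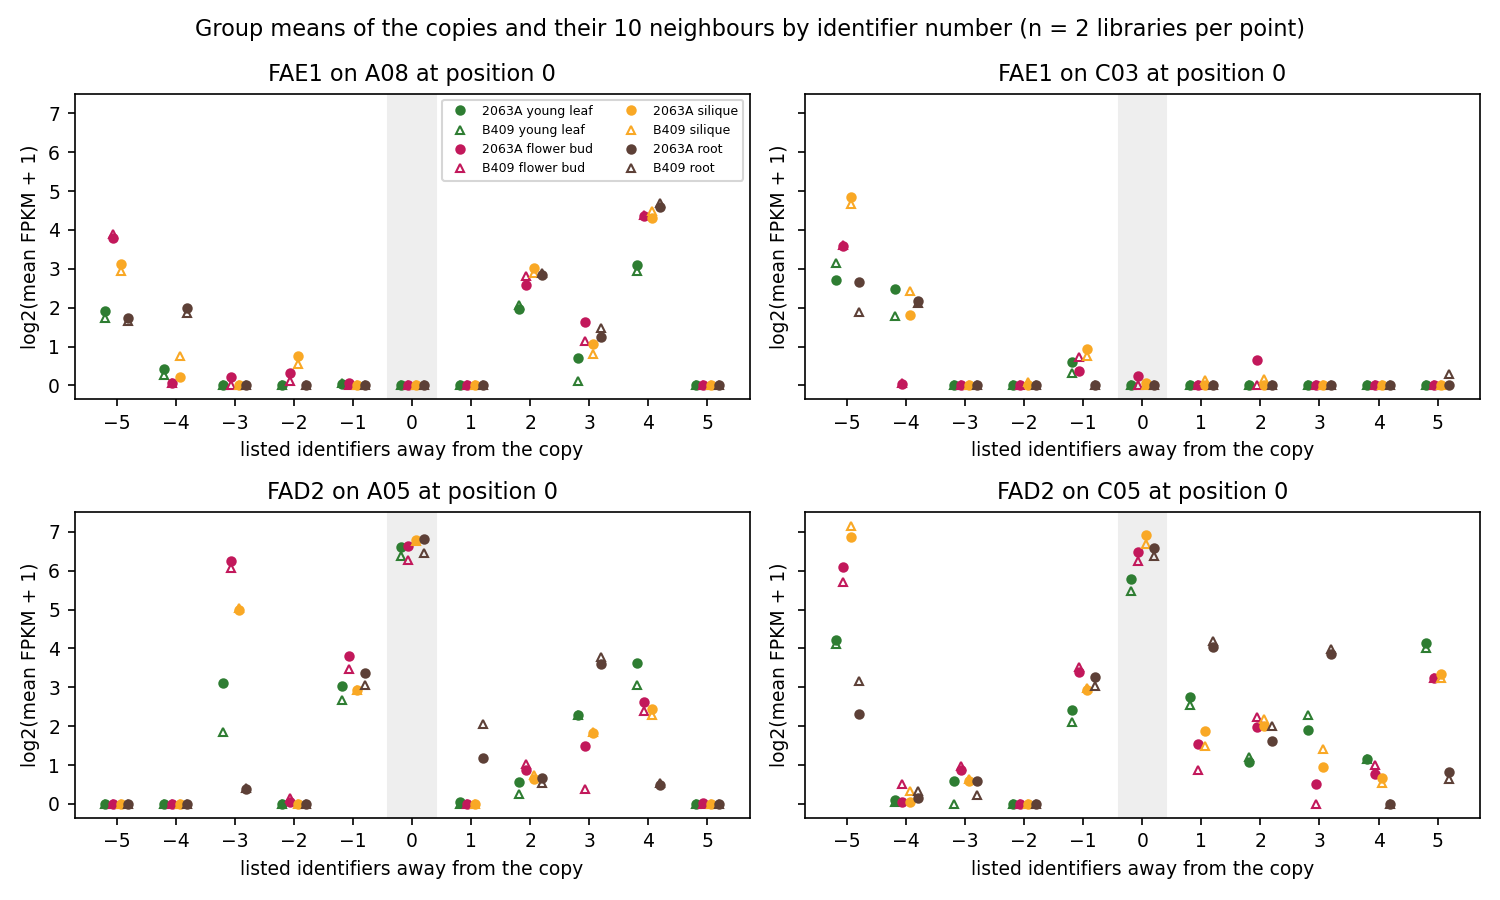
Log2 of group mean FPKM + 1 for each copy (position 0, grey) and the 5 listed identifiers on either side, coloured by tissue, with filled circles for 2063A and open triangles for B409. The FAE1 copies and the identifiers next to them lie near 0, and the FAD2 copies stand at or above almost all of their neighbours.

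The genes most like each FAD2 copy over the 8 group means of log2(FPKM + 1) were sought among 22549 tested genes with a mean of at least 10 in some group. The correlations describe likeness in pattern only, not in size of change, since the points share libraries. They are the highest among 22549 genes over 8 points, and the level that unrelated genes would reach was not computed. For the A05 copy these were BnaC05g41950D (Pearson r = 0.968, group means 7.25 to 14.7) and BnaA03g09460D (r = 0.932, 0.0642 to 17.8). For the C05 copy they were BnaA03g07400D (r = 0.984, 1.67 to 16.6) and BnaA10g02580D (r = 0.983, 6.90 to 42.0). Between the FAD2 copies themselves r was 0.634, which placed the C05 copy at rank 931 for A05 and the A05 copy at rank 5063 for C05. For FAE1 no such genes are given, because the A08 copy was constant at 0 and the C03 copy was above 0 in only 3 libraries.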

How the data were processed

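Each deposited table lists FPKM by gene for a single library, per the file headers. Trimmomatic, TopHat2 and Cufflinks 2.1.1 appear in the submitters' processing notes without roles or settings, and neither the build nor the gene models are named in the sources used here. Values were taken as log2(FPKM + 1), a scale that understates the change of low genes. The 54206 of 101040 genes that reached an FPKM of 1 in 2 or more libraries were fitted with limma 3.58.1 in R 4.3.3 (1 mean per group, mean-variance trend, 8 residual degrees of freedom) and p-values were Benjamini-Hochberg adjusted over all tested genes. A call needed an adjusted p below 0.05 and a 2-fold change, two-sided, and results past the adjusted p alone are reported as such. A to C ratios were tested with exact permutation tests that moved single libraries. The fit was first checked on made-up data with known changes. Alternatives were a pseudocount of 0.1, no filter, equal totals, quantile normalization, a replicate block, young leaf left out, each tissue fitted alone and each library left out. The test of the ratio in young leaf was added after the data were seen.

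The named genes are the 4 copies, the nearest listed neighbour on either side of each and, for each FAD2 copy, the 2 tested genes with the highest correlation over the group means. The members and lists were chosen with earlier results of these data known. Lists of other genes of fatty acid and oil synthesis and of tissue markers could not be used, because neither the files nor the RefSeq table pair their names with identifiers, and no sequence of the 4 genes was used here.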

Additional observations from a re-analysis of the deposited data

How the results depend on the processing

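The higher FAD2 level on C05 in silique passed the adjusted p under each alternative run: a pseudocount of 0.1, no filter, equal totals, quantile normalization, the replicate block, young leaf left out and each library left out in turn (log2 change 0.62 to 0.67 when leaving out 1 library, 0.38 without young leaf, whose low values make up part of the contrast). For A05 the same contrast was past the adjusted p as reported (0.24, leave-one-out range 0.20 to 0.28) and not without the filter (0.24, adjusted p = 0.060), where all 101040 genes entered the adjustment. The cultivar difference over tissues stayed within 0.19 to 0.29 for A05 and 0.21 to 0.26 for C05 when 1 library was left out, and only the C05 result stayed past the threshold in all 16 cases. The A05 difference between the cultivars in silique, never past the threshold, changed sign under quantile normalization (-0.0095) and ran from -0.056 to 0.092 without single libraries. The mean log2 ratio of the FAD2 copies ran from 0.22 to 0.29 without single libraries (8 of 16 past the threshold) and was 0.071 without young leaf. The cultivar difference of the ratio averaged over tissues, never past the threshold, ran from -0.045 to 0.061. Other sign changes concerned values near 0: the cultivar difference of the C05 silique contrast (0.0016 with equal totals, 0.0027 without young leaf, -0.073 to 0.015 without single libraries), A05 in young leaf minus flower bud (-0.093 with equal totals, -0.058 to 0.14 without single libraries) and A05 in silique minus root (-0.013 after quantile normalization). Where no cause is named, the cause was not tested. Among tissue pairs, A05 in flower bud minus root passed the adjusted p with equal totals (0.033) and A05 in young leaf minus root did too (0.0074).

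Replicate numbers showed no pairing of the libraries except in young leaf: over 28 pairs of groups, deviations of same-numbered libraries correlated above 0.1 in 1, young leaf of both cultivars (r = 0.335), with the lowest at -0.175. With the replicate number as a block the silique changes remained 0.65 for C05 and 0.24 for A05 (adjusted p = 3.4e-05 and 0.046), and no result of a FAD2 copy crossed the threshold. The block was a single term for all tissues, so it could not take up a replicate effect confined to young leaf. Without the filter, FAE1 on C03 had an adjusted p of 0.0037 in limma for 2063A minus B409 in flower bud (log2 change 0.23), of 0.024 over tissues (0.075), of 0.0073 for young leaf minus flower bud (-0.12) and of 0.0070 for flower bud minus root (0.12), at FPKM values no higher than 0.217. Only relative depth could be recovered, so differences among values this low cannot be judged.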
